A study of Homo sapiens with 12 samples.

Results

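The difference between the doxycycline responses of 2 Jurkat lines, one carrying an inducible shRNA against TAL1 and the other an inducible shRNA against UTX, was measured gene by gene over 8 of the 12 libraries of the series. For each gene the log2 ratio of TAL1-KD to TAL1-control was set against the log2 ratio of UTX-KD to UTX-control, and the contrast between these ratios is called the difference of the responses. A positive difference means that the ratio was larger in the TAL1-labelled arm. The 8 libraries were those in the deposited tables of the 2 knockdown experiments, joined by gene identifier, with a gene absent from one table taken as 0 reads there. The other 4 libraries, from a drug treatment, share no sample with this contrast and were not used here.

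Jurkat is an established line from a human T-cell acute lymphoblastic leukaemia. TAL1-KD cells carried the shRNA against TAL1 and received doxycycline at 5 µg/ml for 72 h, and TAL1-control cells were the same line left without it. UTX-KD cells carried the shRNA against UTX and received the same dose for the same time, and UTX-control cells were that line left without it. Each of the 4 groups had 2 libraries of polyadenylated RNA. All lines grew in serum free of tetracycline with blasticidin and G420. Doxycycline is therefore common to both induced groups, and what it does equally in both lines cancels in the contrast. No line with a neutral shRNA was analysed here, and the labels do not say whether each line was 1 clone or a pool. The labels name no batch, and the shRNA, the line and its culture cannot be told apart between the arms. The labels also do not say that replicates were separate cultures, so p-values here reflect the spread of these libraries alone, and that spread may be technical.

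TAL1 is a basic helix-loop-helix transcription factor of blood stem cells that is switched on abnormally in many T-cell leukaemias, where it binds DNA with E proteins such as the product of TCF3 and with GATA3, RUNX1 and LMO proteins. UTX, the product of KDM6A, removes the repressive methyl mark that Polycomb repressive complex 2 places on lysine 27 of histone H3, and works in a complex with the methyltransferase KMT2D. The question of the contrast is where the responses of the lines part and where they run together.

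Between 59226636 and 82534711 reads were counted in each library. Gene levels are given as TMM-normalised CPM (read counts scaled to a common library size), which compare libraries and not genes of unlike length. Of 31885 genes in either table, 17611 passed the filter on low counts and were tested. The spread between replicates was unequal. The SD of the log2 difference between replicates was 0.452 in TAL1-KD, 0.296 in TAL1-control, 0.292 in UTX-KD and 0.314 in UTX-control. The biological coefficient of variation was 8.40% within the TAL1-labelled arm and 2.29% within the UTX-labelled one. T-cell markers summed to between 2868 and 3841 CPM in the 8 libraries, B-cell markers to between 39.6 and 73.9, erythroid markers to between 9.63 and 14.1, epithelial and fibroblast markers to between 4.27 and 10.7, and myeloid markers to between 1.40 and 2.45 CPM. No marker tested was at 0 in all libraries.

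Neither targeted mRNA was shown to be lower in its own induced libraries. TAL1 (ENSG00000162367) had 239 and 263 CPM in TAL1-KD and 258 and 260 CPM in TAL1-control, and it had 228 and 225 CPM in UTX-KD and 249 and 246 CPM in UTX-control. Its log2 fold change was -0.05 in the TAL1-labelled arm and -0.13 in the UTX-labelled arm, and the difference of 0.08 had a 95% interval of -0.10 to 0.27 (edgeR quasi-likelihood test, adjusted p = 0.430). KDM6A (ENSG00000147050) had 28.6 and 28.7 CPM in UTX-KD against 30.3 and 30.6 CPM in UTX-control, which is -0.09 on the log2 scale (SE 0.05, edgeR quasi-likelihood test, adjusted p = 0.265). Both UTX-KD values of KDM6A were below both UTX-control values. The test used a spread shared with the more variable TAL1-labelled arm, so it cannot exclude a small fall in UTX-KD. In the TAL1-labelled arm KDM6A stood higher, at 62.5 and 63.5 CPM in TAL1-KD against 53.6 and 54.3 CPM in TAL1-control. For KDM6A the difference of 0.31 passed the test (SE 0.07, edgeR adjusted p = 0.00647), but it was 0.04 with library totals and 0.16 with upper quartile scaling, and did not pass with either. The arms are named by their labels throughout for this reason.

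The responses differed at many genes, in both directions. At a Benjamini-Hochberg adjusted p under 0.05 by the edgeR quasi-likelihood test, which is what "called" means here, the difference was called at 8825 of 17611 genes (50.1%), with 4405 genes higher (25.0%) and 4420 lower (25.1%) in the TAL1-labelled response. A difference of at least 1 on the log2 scale was reached by 712 of the higher and 1771 of the lower genes. The response itself was called at 10929 genes (62.1%) in the TAL1-labelled arm and at 4320 (24.5%) in the UTX-labelled arm. These calls used a shared estimate of the spread for both arms, although their spread was unequal. With limma voom and group weights, the counts were 8378 in the TAL1-labelled arm and 8542 in the UTX-labelled arm. The larger TAL1-labelled count thus depended on the model. The SD of the log2 fold changes was 0.80 in the TAL1-labelled arm and 0.46 in the UTX-labelled one. The UTX-labelled count moved with single libraries. It was 8062 and 8083 without TAL1-KD replicates 1 and 2, 1605 and 1599 without UTX-KD replicates 1 and 2, and 1375 and 1570 without UTX-control replicates 1 and 2. Levels themselves differed between the lines, at 67.3% of genes between TAL1-KD and UTX-KD and at 59.7% between TAL1-control and UTX-control (29.7% higher and 30.1% lower in TAL1-control). Across the 17611 genes the 2 log2 fold changes, which share no library, had a Pearson correlation of 0.155 and a Spearman correlation of 0.145, as a description with genes that are not independent. In RNA from whole cultures, fewer cells of a kind and less RNA per cell cannot be told apart.

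The split into higher and lower depended on the scaling of the libraries. TMM and the size factors of DESeq2 gave nearly even splits, the second with 4382 higher and 4424 lower. Library totals gave 2281 higher and 6714 lower and moved the median difference of all genes to -0.30, and upper quartile scaling gave 3126 higher and 5830 lower with a median of -0.18, against -0.03 with TMM. Each list median below can be read against these medians of all genes. Each list count with TMM can be read against the shares of all genes called. For the difference these were 25.0% higher and 25.1% lower. They were 31.5% and 30.6% in the TAL1-labelled response, and 11.8% and 12.7% in the UTX-labelled one.

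In the main fit, most called differences came from genes called in 1 response. Of the 4405 genes with a higher difference, 2879 were called in the TAL1-labelled response alone and 393 in the UTX-labelled response alone. A further 421 were called in both in the same direction with unequal size, and 123 were called in neither. Among the 4420 with a lower difference, the counts were 2944, 378, 476 and 230. The responses went opposite ways, with both called, at 589 genes (3.34%) that were higher in TAL1-KD and lower in UTX-KD, and at 392 genes (2.23%) that were lower in TAL1-KD and higher in UTX-KD. These opposite calls were 1463 and 1124 without TAL1-KD replicate 1, 1354 and 755 without TAL1-KD replicate 2, and between 121 and 202 in either direction without any 1 of the 4 UTX-labelled libraries. Without TAL1-control replicate 1 they were 335 and 232, and without TAL1-control replicate 2 the first count was 376.

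**Figure D1:**
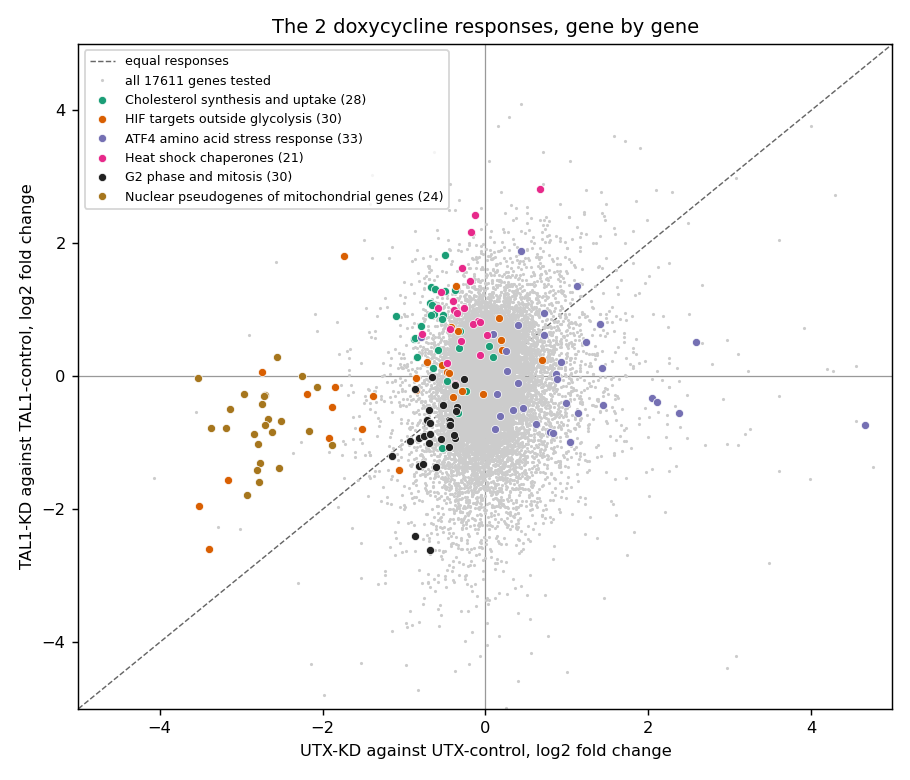
Log2 fold change of TAL1-KD against TAL1-control (vertical axis) and of UTX-KD against UTX-control (horizontal axis) for the 17611 genes tested, each point 1 gene, with 6 gene lists in colour and the number of members tested in brackets. The dashed line marks equal responses and 16 genes lie outside the axes of ±5; cholesterol genes sit above it at the upper left, ATF4 genes below it at the right, mitotic genes along it at the lower left, and mitochondrial pseudogenes far to the left.

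Genes that answer to low oxygen and genes of sugar breakdown fell in the UTX-labelled arm and as a list stayed near 0 in the TAL1-labelled arm. HIF is the transcription factor that accumulates when oxygen is short and raises genes of glycolysis, glucose uptake and mitochondrial turnover. Of 30 HIF targets tested outside glycolysis (32 listed), 22 had a higher and 2 a lower difference, with a median of 0.81. Their median log2 fold change was 0.01 in the TAL1-labelled response, where 10 rose (31.5% of all genes rose there) and 9 fell (30.6%), and -0.75 in the UTX-labelled response, where 3 rose (11.8%) and 24 fell (12.7%).

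BHLHE40 (ENSG00000134107), a circadian and hypoxia-responsive repressor, moved in opposite directions. It had 52.9 and 72.6 CPM in TAL1-KD and 14.2 and 21.4 CPM in TAL1-control, and 12 and 13.0 CPM in UTX-KD and 38.3 and 44.7 CPM in UTX-control. Neither pair of groups overlapped. Its log2 fold change was 1.82 in the TAL1-labelled arm and -1.73 in the UTX-labelled one, and the difference was 3.55 (SE 0.27, edgeR adjusted p = 3.24e-05). That was the largest positive one among protein-coding genes outside chromosome Y with a mean normalised count of at least 50. The 250 bases before its annotated start are shown because the hypoxia core ACGTG, searched on both strands, occurs 4 times in them. The sequence is from RefSeq on GRCh38.p14, chr3:4979187-4979436, plus strand, 5′ to 3′, with the matches in capitals; the first 2 overlap, one on each strand.
BHLHE40: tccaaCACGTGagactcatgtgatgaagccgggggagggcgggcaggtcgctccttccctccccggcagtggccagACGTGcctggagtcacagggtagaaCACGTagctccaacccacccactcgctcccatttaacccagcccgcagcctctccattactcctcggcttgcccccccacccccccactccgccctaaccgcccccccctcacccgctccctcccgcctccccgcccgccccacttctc

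Some other HIF targets fell in UTX-KD, and for ADM and BNIP3 the TAL1-labelled change did not pass the test. ADM, the vasodilator peptide adrenomedullin, had 2.94 and 3.45 CPM in TAL1-KD and 2.62 and 3.51 CPM in TAL1-control, groups that overlapped, and 1.49 and 1.33 CPM in UTX-KD against 7.90 and 11.1 CPM in UTX-control, groups that did not. Its difference was 2.81 (SE 0.29, edgeR adjusted p = 0.000115). BNIP3, a receptor for the removal of mitochondria, had 28.8 and 33.5 CPM in TAL1-KD and 28.7 and 41.1 CPM in TAL1-control, against 25.8 and 23.5 CPM in UTX-KD and 81.6 and 96.0 CPM in UTX-control. The highest of these 8 values were thus those of UTX-control. For BNIP3 the difference was 1.68 (SE 0.22), and for PFKFB4, which makes an activator of glycolysis, it was 1.92 (SE 0.20). The histone demethylase gene KDM3A rose by 0.69 in the TAL1-labelled arm and fell by 0.33 in the UTX-labelled arm, a difference of 1.02 (SE 0.08, edgeR adjusted p = 2.90e-05). EPAS1, which encodes a HIF subunit, went the other way on this list: its difference was -0.44 (SE 0.11, edgeR adjusted p = 0.0104), named after its value was seen as the lowest of the list.

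All 21 genes listed for glycolysis were tested, and 18 had a higher difference and 0 a lower one, with a median of 0.95. In the TAL1-labelled response 9 rose and 4 fell (median 0.13), and in the UTX-labelled response 0 rose and 16 fell (median -0.64). The controls stood apart: 17 were called lower and 2 higher in TAL1-control than in UTX-control, at a median log2 difference in level of -0.91. That median was -0.11 between TAL1-KD and UTX-KD. ENO1 (ENSG00000074800), the glycolytic enzyme enolase, had 976 and 1036 CPM in TAL1-KD and 733 and 926 CPM in TAL1-control, and 1155 and 1096 CPM in UTX-KD and 2218 and 2411 CPM in UTX-control. Its level in UTX-control stood apart from the other 6 libraries, and TAL1-KD against UTX-KD gave a log2 difference in level of -0.16 that did not pass the test (edgeR adjusted p = 0.194). The difference of the responses was 1.32 (SE 0.15, edgeR adjusted p = 0.000157). SLC2A1, the glucose transporter GLUT1, differed by 1.26 (SE 0.13) and the triose phosphate isomerase gene TPI1 by 1.19 (SE 0.14), with TAL1-labelled log2 fold changes of 0.01 and 0.12. PGAM1, which encodes phosphoglycerate mutase, was called in both, at 0.59 in the TAL1-labelled response and -0.62 in the UTX-labelled one.

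The letters ACGTG were found in the 250 bases before the start of 12 of the 22 HIF targets with a promoter in the RefSeq table (54.5%) and of 8 of 19 glycolytic genes (42.1%), against 18.7% of all 27305 promoters of that length. The shares describe these lists, and a match is not evidence of binding.

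**Figure D2:**
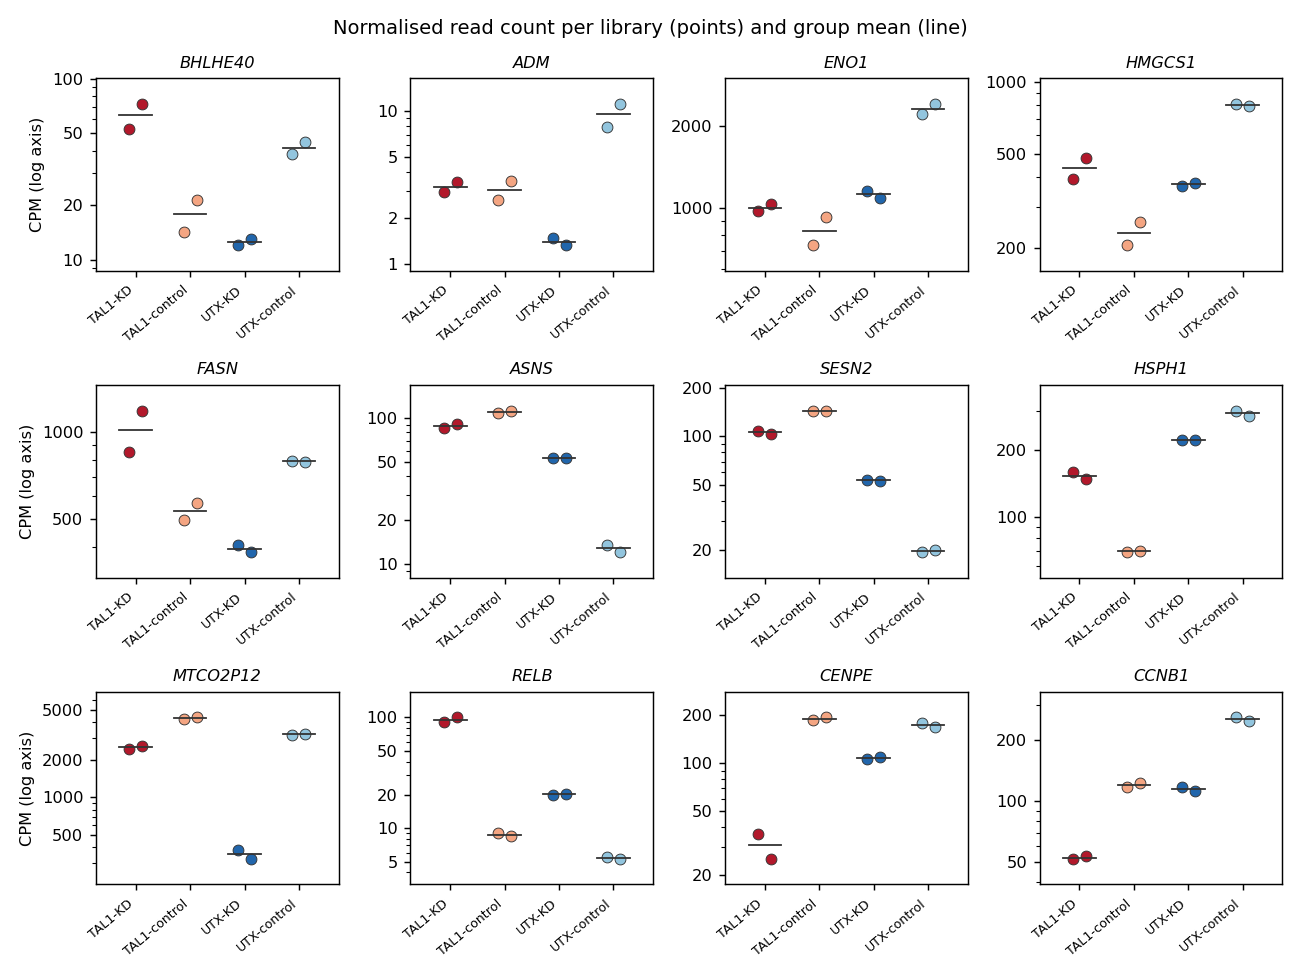
Normalised read count in CPM (log axis) of 12 genes in each of the 8 libraries, by group, with points for libraries and a line at the group mean of 2. For BHLHE40, HMGCS1 and FASN the induced libraries are above their controls in the TAL1-labelled arm and below them in the UTX-labelled arm, for ASNS and SESN2 the reverse, and for CCNB1 both arms have lower induced libraries.

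Genes of sterol synthesis went opposite ways in the arms. Cells make cholesterol from acetyl-CoA by a chain of enzymes whose genes the SREBP transcription factors raise when membrane sterol is low. Of 28 cholesterol genes tested (30 listed), 22 had a higher difference and 1 a lower one, with a median of 1.44. In the TAL1-labelled response 22 rose and 4 fell (median 0.72), and in the UTX-labelled response 0 rose and 23 fell (median -0.56). Opposite calls were made at 18 of the 28, against 3.34% and 2.23% of all genes for the 2 kinds of opposite call.

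HMGCS1 (ENSG00000112972), an early enzyme of the pathway, had 391 and 480 CPM in TAL1-KD and 206 and 258 CPM in TAL1-control, and 367 and 378 CPM in UTX-KD and 809 and 790 CPM in UTX-control. The lowest values were in TAL1-control and the highest in UTX-control, and the induced groups stood between them with 1 TAL1-KD library near the UTX-KD ones. Its difference was 2.01 (SE 0.16, edgeR adjusted p = 4.05e-05), made of 0.91 in the TAL1-labelled arm and -1.10 in the UTX-labelled arm. Later enzymes followed: IDI1 differed by 1.54 (SE 0.13), NSDHL by 1.79 (SE 0.18) and HSD17B7 by 1.78 (SE 0.16), each with opposite calls. DHCR7, the last enzyme of one branch, had the largest difference of the list at 2.32 (SE 0.25), named after its value was seen; its rise of 1.82 was called in the TAL1-labelled arm, and its -0.50 in the UTX-labelled arm was not (edgeR adjusted p = 0.0635).

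Of 10 fatty acid synthesis genes tested (12 listed), the TAL1-labelled response raised 5 and lowered 1, the UTX-labelled response raised 0 and lowered 7, and 4 had opposite calls. The difference was higher at 8 and lower at 1, with a median of 0.59. FASN, the fatty acid synthase, had 852 and 1186 CPM in TAL1-KD and 499 and 570 CPM in TAL1-control, and 407 and 385 CPM in UTX-KD and 798 and 790 CPM in UTX-control. Neither arm's groups overlapped, and the difference was 1.93 (SE 0.19, edgeR adjusted p = 8.63e-05). SCD, the desaturase that makes oleic acid, differed by 1.84 (SE 0.20), ACLY, which supplies cytosolic acetyl-CoA, by 1.30 (SE 0.16) and the desaturase gene FADS1 by 0.84 (SE 0.09), all 3 with opposite calls. With library totals 5 of the 10 were called higher. The sterol element TCACNCCAC was found in 1 of 22 cholesterol promoters (4.55%) against 0.875% of all, on either strand.

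Targets of ATF4 rose in the UTX-labelled arm and were divided in the TAL1-labelled arm, and had the lowest median of the lists. ATF4 is translated when amino acids run short or the endoplasmic reticulum is stressed, and raises genes of amino acid synthesis and transport. Of 33 genes tested (34 listed), 24 had a lower difference and 3 a higher one, with a median of -0.84. In the UTX-labelled response 27 rose and 1 fell (median 0.82), while in the TAL1-labelled response 12 rose and 15 fell (median -0.09), and 14 of the 33 had opposite calls. The groups also stood apart in level: gene by gene, the median log2 difference in level was 0.91 between TAL1-KD and UTX-KD and 1.52 between TAL1-control and UTX-control.

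ASNS (ENSG00000070669), the asparagine synthetase, had 86.3 and 92 CPM in TAL1-KD and 109 and 113 CPM in TAL1-control, and 53.8 and 53.2 CPM in UTX-KD and 13.6 and 12.1 CPM in UTX-control. No 2 of the 4 groups overlapped, with UTX-control lowest and TAL1-control highest. Its difference was -2.37 (SE 0.09, edgeR adjusted p = 1.54e-06). SESN2, a sensor of leucine, had 108 and 104 CPM in TAL1-KD and 142 and 144 CPM in TAL1-control, and 54.0 and 53.2 CPM in UTX-KD and 19.4 and 19.9 CPM in UTX-control, with a difference of -1.88 (SE 0.07). The mitochondrial phosphoenolpyruvate carboxykinase gene PCK2 had 77.0 and 76.2 CPM in TAL1-KD and 156 and 148 CPM in TAL1-control, and 74.3 and 69.9 CPM in UTX-KD and 34.9 and 35.3 CPM in UTX-control. The PCK2 controls were far apart and its induced groups were close, at a log2 difference in level of 0.09 that did not pass the test (edgeR adjusted p = 0.187). Its difference of the responses was -2.02 (SE 0.08). CBS, which condenses serine with homocysteine, differed by -1.67 (SE 0.09), and ATF3, a stress-induced transcription factor, by -1.37 (SE 0.08).

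Of 2 stress regulators on the list that are named here after their values were seen, DDIT3, a transcription factor of the stress response, rose in both arms, by 0.79 in the TAL1-labelled one and 1.40 in the UTX-labelled one, and ATF4 mRNA itself rose by 0.77 and 0.40. For DDIT3 the difference was -0.61 (SE 0.10, edgeR adjusted p = 0.00117). For ATF4 it was 0.37 (SE 0.13, edgeR adjusted p = 0.0363), which fell to 0.22 without TAL1-KD replicate 2, and to 0.10 with library totals and 0.22 with upper quartile scaling, neither of which passed the test. It also did not pass with the trends of GC content and length removed (0.28), with a mean CPM of at least 1 (0.32), or without any 1 of the control or UTX-KD libraries, where it lay between 0.32 and 0.41.

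The letters TGATGNAA were found on either strand of 3 of 28 promoters of ATF4 list members (10.7%), against 3.19% of all. The window of ASNS is shown because it holds 1 match, from 68 bases before the annotated start (RefSeq, GRCh38.p14, chr7:97872409-97872658, minus strand, 5′ to 3′, match in capitals).
ASNS: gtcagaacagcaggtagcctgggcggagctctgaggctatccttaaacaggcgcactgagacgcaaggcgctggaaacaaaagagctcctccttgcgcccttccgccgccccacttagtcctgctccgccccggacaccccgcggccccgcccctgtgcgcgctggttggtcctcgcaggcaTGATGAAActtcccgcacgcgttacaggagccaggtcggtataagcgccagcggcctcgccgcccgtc

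Chaperones of the heat shock response rose in the TAL1-labelled arm and fell or did not pass the test in the UTX-labelled arm. These proteins fold clients or hold them unfolded, and heat shock factor raises their genes. All 21 tested (22 listed) had a higher difference, with a median of 1.30. In the TAL1-labelled response 20 rose (median 0.95), and in the UTX-labelled response 11 fell and 0 rose (median -0.29). Gene by gene, the median log2 difference in level between TAL1-control and UTX-control was -0.98.

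HSPH1 (ENSG00000120694), which recharges HSP70 proteins with nucleotide, had 159 and 148 CPM in TAL1-KD and 69.4 and 70.4 CPM in TAL1-control, and 221 and 222 CPM in UTX-KD and 302 and 284 CPM in UTX-control. Its difference was 1.54 (SE 0.08, edgeR adjusted p = 7.17e-06). TAL1-control was lowest and UTX-control highest, and no groups overlapped. HSPE1, the lid of the mitochondrial chaperonin, differed by 1.81 (SE 0.11), the HSP90 partner gene AHSA1 by 1.60 (SE 0.10) and the co-chaperone gene DNAJA1 by 1.29 (SE 0.08), each with opposite calls. HSPA1B had 24.4 and 41.0 CPM in TAL1-KD and 6.0 and 6.23 CPM in TAL1-control, and 13.7 and 16.3 CPM in UTX-KD and 16.7 and 15.8 CPM in UTX-control, where the groups of the UTX-labelled arm overlapped. HSPA1B differed by 2.54 (SE 0.29) and HSPA1A by 2.35 (SE 0.41), but these inducible HSP70 genes are nearly identical copies and their reads may be split between them.

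The chaperonin that folds actin and tubulin had a higher difference at 8 of 8 subunit genes, with a median of 0.59, and 6 of the 8 had opposite calls. All 8 were called lower in TAL1-control than in UTX-control, at a median log2 difference in level of -1.19. All 8 were also called lower in TAL1-KD than in UTX-KD, at a median of -0.63. CCT7 rose by 0.71 in the TAL1-labelled arm and fell by 0.27 in the UTX-labelled arm. In the endoplasmic reticulum, 16 of 22 chaperone and stress genes had a higher difference and 2 a lower one (median 0.47), and 10 were called higher with library totals. HSPA5, the main chaperone of that compartment, had 225 and 234 CPM in TAL1-KD and 108 and 120 CPM in TAL1-control, and 262 and 266 CPM in UTX-KD and 326 and 316 CPM in UTX-control, and differed by 1.29 (SE 0.09, edgeR adjusted p = 1.82e-05). SDF2L1 and MANF, small proteins of the same compartment, differed by 1.30 (SE 0.14) and 0.93 (SE 0.07).

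**Figure D3:**
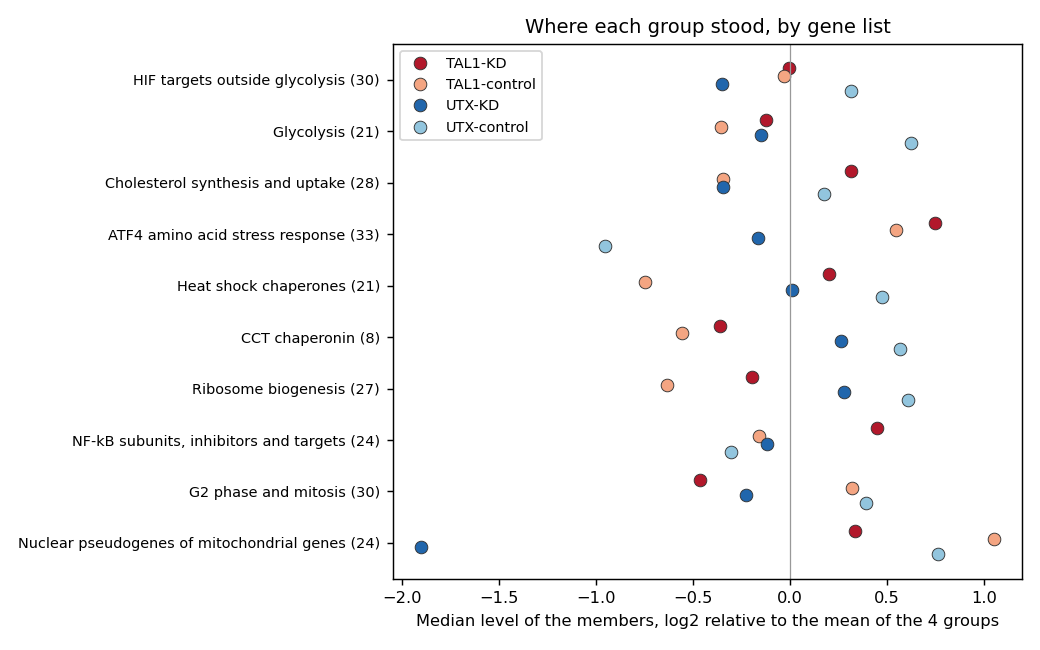
Median log2 level of the members of 10 gene lists in TAL1-KD, TAL1-control, UTX-KD and UTX-control, relative to each gene's mean over the 4 groups, with the number of members tested in brackets. Heat shock members have their lowest median in TAL1-control and their highest in UTX-control, ATF4 members have their lowest in UTX-control, and mitochondrial pseudogenes have their lowest in UTX-KD.

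Genes for making ribosomes went up in the TAL1-labelled arm at 18 of 27 tested and down at 4, and in the UTX-labelled arm 0 rose and 21 fell. Of these 27 ribosome biogenesis genes (28 listed), 22 had a higher difference and 1 a lower one (median 0.71), with 12 opposite calls. The lines stood apart without doxycycline: all 27 were called lower in TAL1-control than in UTX-control (median log2 difference in level -1.29). Between the induced groups, 24 were called lower in TAL1-KD than in UTX-KD (median -0.52). GNL3, a nucleolar GTPase, had 118 and 122 CPM in TAL1-KD and 59.0 and 62.1 CPM in TAL1-control, and 143 and 147 CPM in UTX-KD and 183 and 172 CPM in UTX-control. None of its groups overlapped, and its difference was 1.28 (SE 0.08, edgeR adjusted p = 1.30e-05). NOLC1, a nucleolar scaffold, differed by 1.18 (SE 0.08) and PES1, needed for the large subunit, by 1.22 (SE 0.08). Of 50 nuclear genes of the respiratory chain, 43 had a higher difference and 1 a lower one (median 0.64), with 40 rising and 2 falling in the TAL1-labelled response and 0 and 11 in the UTX-labelled one. With library totals 32 of the 50 had a higher difference and 4 a lower one (median 0.37). COX7B, a subunit of cytochrome oxidase, rose by 1.32 in the TAL1-labelled arm and did not pass in the UTX-labelled arm at -0.13, and ATP5MC1, a subunit of the ATP synthase ring, rose by 0.83 and fell by 0.42. Of 75 mitochondrial ribosomal protein genes (77 listed), 55 had a higher difference and 2 a lower one (median 0.55), and library totals gave 37 and 9 (median 0.27). In the TAL1-labelled response 49 of the 75 rose and 9 fell, and in the UTX-labelled response 0 rose and 29 fell, with the difference of MRPL20 at 1.15 (SE 0.10). The mitochondrial DNA helicase gene TWNK differed by 1.35 (SE 0.08) and the polymerase gene POLG by 1.11 (SE 0.13), both with opposite calls. Between TAL1-control and UTX-control, the median log2 difference in level was -0.46 for the respiratory chain genes and -0.50 for the mitochondrial ribosomal protein genes.

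Cytosolic ribosomal protein genes also rose in the TAL1-labelled arm, but the count with a called difference moved with the settings. Of 78 tested (79 listed), 51 had a higher difference and 0 a lower one, with a median of 0.47, and 73 rose in the TAL1-labelled response against 2 in the UTX-labelled one. The median was 0.27 without TAL1-KD replicate 2. The count was 19 with library totals, 28 with upper quartile scaling and 14 at an adjusted p under 0.01. It was 77 without TAL1-KD replicate 1 and 12 without TAL1-control replicate 1, and 24, 18, 26 and 20 without UTX-KD replicates 1 and 2 and UTX-control replicates 1 and 2. RPL24 had 580 and 744 CPM in TAL1-KD and 330 and 372 CPM in TAL1-control, and 463 and 455 CPM in UTX-KD and 454 and 462 CPM in UTX-control. Its difference was 0.91 (SE 0.15, edgeR adjusted p = 0.000996). Processed pseudogenes can share reads with these genes.

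Nuclear pseudogenes of mitochondrial genes had the largest list median. These are old insertions of mitochondrial DNA in the chromosomes whose reads can come from mitochondrial transcripts, so their source is uncertain. Of 64 such entries, 24 passed the filter, and 23 of these had a higher difference and 0 a lower one, with a median of 1.98. All 24 fell in the UTX-labelled response (median -2.73) and 17 fell in the TAL1-labelled one (median -0.76). Summed over the 24, the level was 11747 and 12387 CPM in TAL1-KD and 22513 and 21920 CPM in TAL1-control, and 3088 and 2547 CPM in UTX-KD and 19210 and 18699 CPM in UTX-control. Both induced groups were below both controls, and UTX-KD was lowest. MTCO2P12 (ENSG00000229344) had 2454 and 2554 CPM in TAL1-KD and 4247 and 4337 CPM in TAL1-control, and 379 and 323 CPM in UTX-KD and 3145 and 3231 CPM in UTX-control, with a difference of 2.41 (SE 0.12, edgeR adjusted p = 5.85e-06). The part of these reads in the other differences was not tested.

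NF-kB genes rose in both arms, and more in the TAL1-labelled one. NF-kB factors are held in the cytoplasm by inhibitors whose own genes they raise, and in T cells they follow antigen receptor and TNF family signals. Of 24 tested (27 listed), 18 rose and 2 fell in the TAL1-labelled response (median 0.55), and 11 rose and 0 fell in the UTX-labelled one (median 0.22). The difference was higher at 14 and lower at 2 (median 0.43), and at 9 with library totals.

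RELB (ENSG00000104856), a subunit of the non-canonical pathway, had 90.7 and 99.9 CPM in TAL1-KD and 9.09 and 8.47 CPM in TAL1-control, and 20.0 and 20.5 CPM in UTX-KD and 5.55 and 5.29 CPM in UTX-control. It rose by 3.44 and by 1.90 on the log2 scale, a difference of 1.54 (SE 0.11, edgeR adjusted p = 1.96e-05). NFKBIA, the inhibitor that retains NF-kB in the cytoplasm, had 138 and 165 CPM in TAL1-KD and 34.2 and 35.5 CPM in TAL1-control, and 29.6 and 31.8 CPM in UTX-KD and 17.9 and 17.9 CPM in UTX-control. Both arms had higher induced libraries, and the difference was 1.34 (SE 0.12). The adhesion receptor gene ICAM1 differed by 1.56 (SE 0.10) and the apoptosis inhibitor gene BIRC3 by 1.07 (SE 0.10). ZC3H12A, a nuclease that degrades inflammatory mRNAs and is not on the list, rose by 1.99 in the TAL1-labelled arm and was at -0.02 in the UTX-labelled one. The lowest of the list was TNFAIP2 at -1.22 (SE 0.14), named after its value was seen.

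The kappa B pattern, GGG, any 2 bases, TT, any base and CC, was found on either strand of 8 of 21 promoters of NF-kB list members (38.1%), against 5.08% of all. NFKBIA is shown as a member called in all 3 tests, with 1 match on the reverse strand (RefSeq, GRCh38.p14, chr14:35404750-35404999, minus strand, 5′ to 3′, match in capitals).
NFKBIA: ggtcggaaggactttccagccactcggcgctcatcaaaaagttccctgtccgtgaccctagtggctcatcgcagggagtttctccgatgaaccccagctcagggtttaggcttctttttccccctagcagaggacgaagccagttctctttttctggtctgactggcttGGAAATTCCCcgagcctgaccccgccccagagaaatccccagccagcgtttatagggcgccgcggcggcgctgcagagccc

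Early response genes rose in both arms, at 18 of 25 tested (28 listed) in the TAL1-labelled response and at 11 in the UTX-labelled one, with 3 and 1 lower. Of the 25, 12 had a higher difference and 3 a lower one (median 0.62). JUNB, an AP-1 subunit, differed by 0.98 (SE 0.09), and the phosphatases of MAP kinases DUSP1 and DUSP5 by 1.40 (SE 0.13) and 1.88 (SE 0.18). DUSP5 had 7.91 and 7.39 CPM in TAL1-KD and 2.08 and 2.31 CPM in TAL1-control, and 2.25 and 2.64 CPM in UTX-KD and 2.46 and 2.72 CPM in UTX-control, so the TAL1-KD libraries stood above the other 6. EGR1, an early growth response factor and the lowest of the list, differed by -1.68 (SE 0.28) and is named after its value was seen.

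Of the iron and redox genes, 6 of 9 iron genes and 13 of 15 NRF2 genes tested rose in the TAL1-labelled arm, and 2 and 0 fell. In the UTX-labelled arm 1 and 4 rose, and 2 and 2 fell. The median TAL1-labelled log2 fold change of the iron genes was 0.23, and 0.05 with library totals. FTL (ENSG00000087086), the ferritin light chain, had 1838 and 2200 CPM in TAL1-KD and 326 and 352 CPM in TAL1-control, and 544 and 542 CPM in UTX-KD and 425 and 446 CPM in UTX-control. The difference was 2.26 (SE 0.12, edgeR adjusted p = 7.31e-06). The ferritin heavy chain gene FTH1 differed by 1.52 (SE 0.09), and the transferrin receptor gene TFRC, which iron regulates opposite to ferritin, by 1.51 (SE 0.08). TFRC had 488 and 501 CPM in TAL1-KD and 200 and 189 CPM in TAL1-control, and 529 and 534 CPM in UTX-KD and 593 and 594 CPM in UTX-control, so that TAL1-control stood below the other 6 libraries. Over the 9 iron genes tested (14 listed), 5 had a higher and 0 a lower difference, with a median of 0.22 that was -0.04 with library totals. Ferritin reads are uncertain, since many processed copies resemble these genes.

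Of 15 NRF2 and thiol genes (18 listed), 10 had a higher and 1 a lower difference (median 0.53). NRF2 is the factor that raises genes of glutathione and thioredoxin when oxidants accumulate. PRDX1, a peroxidase that uses thioredoxin, had 438 and 480 CPM in TAL1-KD and 136 and 149 CPM in TAL1-control, and 423 and 409 CPM in UTX-KD and 560 and 554 CPM in UTX-control. Its difference was 2.11 (SE 0.10, edgeR adjusted p = 3.63e-06), and TAL1-control was again the lowest group. TXN, thioredoxin, differed by 1.36 (SE 0.12), while the cystine transporter gene SLC7A11, also a target of ATF4 and named after its value was seen, differed by -1.31 (SE 0.15). Of 7 metallothionein and zinc genes tested (12 listed), 6 had a higher and 0 a lower difference (median 0.71), with MT2A, a metallothionein, at 1.24 (SE 0.12).

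Mitotic genes fell in both arms. Of 30 genes tested, 26 fell in the TAL1-labelled response (median -0.80) and 29 in the UTX-labelled response (median -0.63), and none rose in either. The difference was lower at 12 and higher at 2, with a median of -0.19. That count was 23 with library totals, 20 with upper quartile scaling, 9 with the trends of GC content and length removed, and 20 without TAL1-KD replicate 2. It was 8 without TAL1-control replicate 2, UTX-KD replicate 1 or UTX-control replicate 2. Without TAL1-KD replicate 1, 14 were lower and 7 higher, with a median of -0.11.

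CCNB1 (ENSG00000134057), the cyclin that brings cells into mitosis, had 51.9 and 53.4 CPM in TAL1-KD and 118 and 123 CPM in TAL1-control, and 118 and 113 CPM in UTX-KD and 259 and 250 CPM in UTX-control. It fell by 1.20 in the TAL1-labelled arm and by 1.14 in the UTX-labelled arm, and the difference of -0.05 had a 95% interval of -0.22 to 0.12. The TAL1-control and UTX-KD libraries were at similar levels, with TAL1-KD below them and UTX-control above. PLK1, the kinase that drives mitotic entry, fell by 0.96 in the TAL1-labelled arm and by 0.93 in the UTX-labelled arm, and its difference had an interval of -0.26 to 0.19. CENPE, a kinetochore motor, departed from this: it had 36.4 and 25.3 CPM in TAL1-KD and 185 and 193 CPM in TAL1-control, and 106 and 110 CPM in UTX-KD and 179 and 169 CPM in UTX-control. The controls were close, at a log2 difference in level of 0.12 that did not pass the test (edgeR adjusted p = 0.417), and the difference of the responses was -1.93 (SE 0.18, edgeR adjusted p = 7.70e-05). HMMR, which organises spindles, differed by -1.53 (SE 0.18), the topoisomerase gene TOP2A by -0.61 (SE 0.08) and the separase gene ESPL1 by -0.55 (SE 0.07). CDC20, an activator of the anaphase ligase, went the other way at 0.67 (SE 0.12), named after its value was seen as the highest of the list.

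Replication genes also fell in both arms, with more lower differences. Of 39 tested, 35 fell and 1 rose in the TAL1-labelled response (median -0.53), and 32 fell and 0 rose in the UTX-labelled response (median -0.33). The difference was lower at 19 and higher at 3 (median -0.19), and lower at 33 with library totals and 29 with upper quartile scaling. POLA1, the catalytic subunit of the priming polymerase, had 37.7 and 31.2 CPM in TAL1-KD and 114 and 108 CPM in TAL1-control, and 69.4 and 68.2 CPM in UTX-KD and 94.7 and 91.5 CPM in UTX-control. Its difference was -1.25 (SE 0.11), that of the primase gene PRIM1 was -1.12 (SE 0.10) and that of the helicase factor gene CDC45 was -0.78 (SE 0.08). Among 20 genes of G1 control (21 listed), 9 had a lower and 2 a higher difference (median -0.41). CDKN1A, the p21 inhibitor, had 38.5 and 51.0 CPM in TAL1-KD and 10.6 and 11.6 CPM in TAL1-control, and 7.71 and 8.04 CPM in UTX-KD and 6.95 and 6.76 CPM in UTX-control. It differed by 1.82 (SE 0.18, edgeR adjusted p = 9.64e-05), while CDKN2C, an inhibitor of the G1 kinases, differed by -1.22 (SE 0.09) and the repressor gene E2F8 by -1.17 (SE 0.08).

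**Figure D4:**
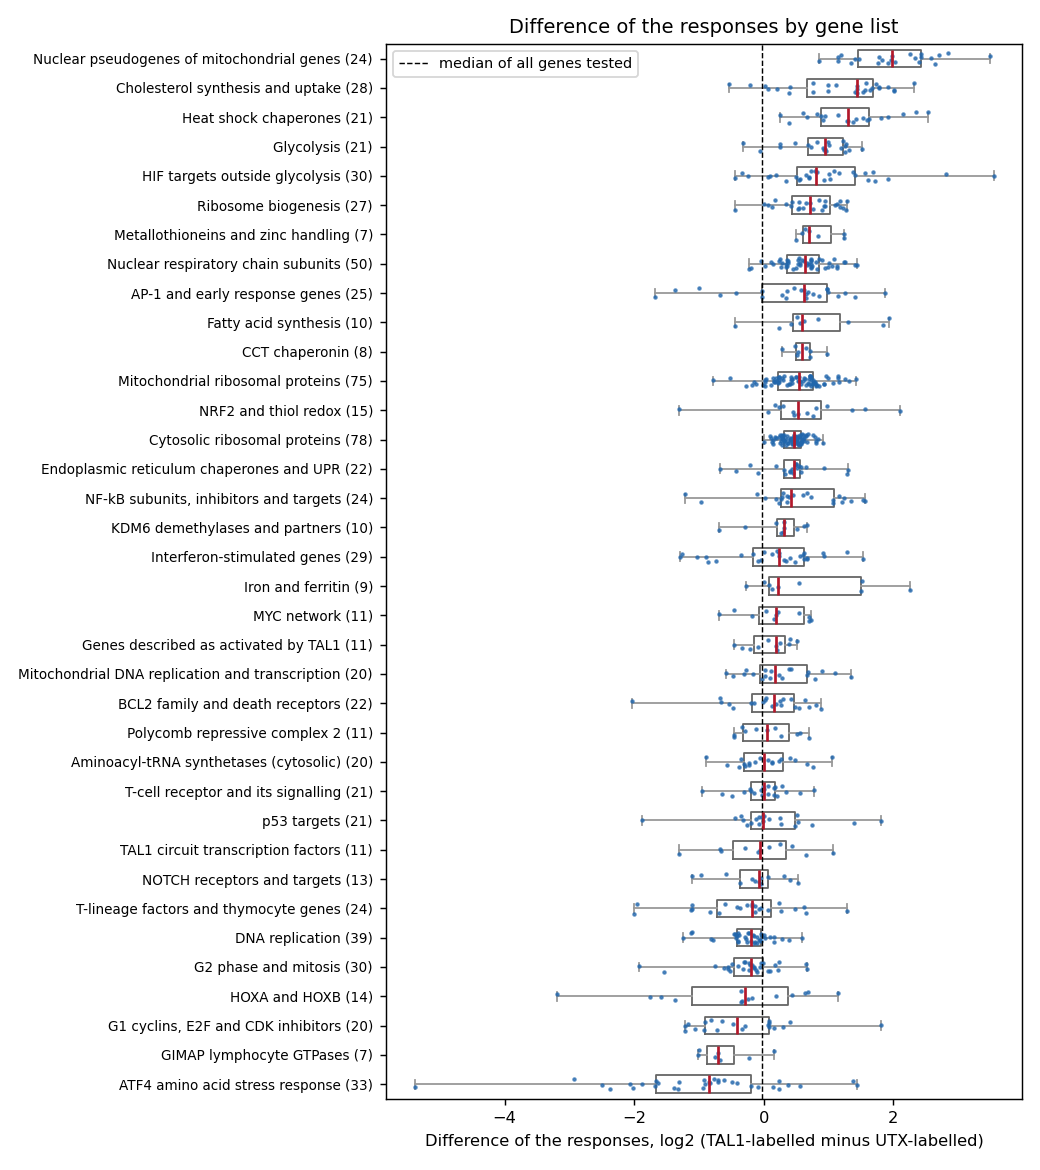
Difference of the responses (log2, TAL1-labelled minus UTX-labelled) of every tested member of 36 gene lists, each point 1 gene, with box for the quartiles, red line for the median and whiskers to the ends. The list medians run from -0.84 for ATF4 targets to 1.98 for mitochondrial pseudogenes, and the dashed line is the median of all genes tested, -0.03.

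Some genes moved by the same amount. Of 1079 genes called higher in both responses, the difference was not called at 663, and at 197 its 95% interval lay within 0.3 of 0. Of 1035 called lower in both, it was not called at 554, and at 211 its interval lay within 0.3 of 0. BTG2, an antiproliferative gene, rose by 0.84 in the TAL1-labelled arm and by 0.86 in the UTX-labelled arm, and its difference of -0.02 had an interval of -0.24 to 0.19. It had 56.4 and 61.7 CPM in TAL1-KD and 33.4 and 32.7 CPM in TAL1-control, and 24.9 and 26.2 CPM in UTX-KD and 13.7 and 14.6 CPM in UTX-control. The glutamine transporter gene SLC1A5 rose by 0.63 in the TAL1-labelled arm and by 0.72 in the UTX-labelled arm, with an interval of -0.28 to 0.10 for the difference. Library totals gave differences that passed the test for BTG2 (-0.29), SLC1A5 (-0.36), CCNB1 (-0.32) and PLK1 (-0.31). Upper quartile scaling did so for SLC1A5 (-0.25) and CCNB1 (-0.20), and SLC1A5 also passed without TAL1-KD replicate 2 (-0.15).

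Of 24 T-lineage factors and thymocyte genes, 10 had a lower and 5 a higher difference, against 25.1% and 25.0% of all genes. The median was -0.18, and it was -0.34 without TAL1-KD replicate 1 and -0.10 without TAL1-KD replicate 2. Library totals gave 15 lower and 2 higher. CD38, a surface enzyme of thymocytes, had 29.9 and 19.1 CPM in TAL1-KD and 57.6 and 58.6 CPM in TAL1-control, and 52.8 and 53 CPM in UTX-KD and 30.2 and 32.4 CPM in UTX-control. Its responses were opposite, at -1.25 in the TAL1-labelled arm and 0.76 in the UTX-labelled one (difference -2.01, SE 0.22, edgeR adjusted p = 0.000140). PTCRA, the pre-T-cell receptor alpha chain, also had opposite calls, at -0.65 and 0.46. DNTT, which adds bases at receptor gene joints, fell by 0.85 in the TAL1-labelled arm and was at -0.02 in the UTX-labelled arm. The factor gene SOX4 had the highest difference of the list at 1.28 (SE 0.11), with 1911 and 2216 CPM in TAL1-KD and 622 and 649 CPM in TAL1-control, against 714 and 748 CPM in UTX-KD and 542 and 553 CPM in UTX-control. Of 21 T-cell receptor and signalling genes, 3 had a higher and 4 a lower difference, with 9 higher and 6 lower without TAL1-KD replicate 1, and 2 higher against 10 lower with library totals and 8 lower with upper quartile scaling. A lower difference was found at 4 of 7 GIMAP genes, lymphocyte GTPases (median -0.71).

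Of 11 genes tested of TAL1's regulatory circuit (12 listed), 4 had a higher and 3 a lower difference (median -0.05), shares near the 25.0% and 25.1% of all genes. The higher count was 2 without TAL1-control replicate 2, either UTX-KD library or UTX-control replicate 2, and library totals gave 2 higher and 6 lower. GATA3 had 361 and 448 CPM in TAL1-KD and 142 and 146 CPM in TAL1-control, and 121 and 118 CPM in UTX-KD and 89.8 and 90.2 CPM in UTX-control, a difference of 1.07 (SE 0.12, edgeR adjusted p = 0.000185). TCF3 differed by 0.65 (SE 0.11). LYL1, the close relative of TAL1, fell by 1.37 in the TAL1-labelled arm and was at -0.06 in the UTX-labelled arm. Of 11 genes described as activated by TAL1, 3 had a higher and 1 a lower difference, against 25.0% and 25.1% of all genes. Library totals turned this to 0 higher and 4 lower and upper quartile scaling to 2 and 4, and with 1 library left out the higher count lay between 2 and 5, highest without TAL1-KD replicate 1.

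Around UTX, 7 of 10 genes of KDM6 demethylases and their partners (11 listed) had a higher and 2 a lower difference (median 0.31), and 2 had a higher one with library totals and 3 with upper quartile scaling. KDM6B, the other active demethylase of the mark, had 327 and 320 CPM in TAL1-KD and 166 and 167 CPM in TAL1-control, and 167 and 168 CPM in UTX-KD and 121 and 126 CPM in UTX-control. It rose in both arms, by 0.96 and 0.44, and the difference was 0.52 (SE 0.07, edgeR adjusted p = 0.000409). KMT2D differed by 0.68 (SE 0.09), and ASH2L, a subunit of the methyltransferase complexes, by -0.69 (SE 0.12). Of 11 Polycomb complex 2 genes (12 listed), 4 had a higher and 4 a lower difference (median 0.05), and library totals gave 1 higher and 5 lower with a median of -0.21. EZH2, the enzyme that places the mark, fell by 0.79 in the TAL1-labelled arm and by 0.32 in the UTX-labelled arm, a difference of -0.46 (SE 0.07). JARID2, which recruits the complex, differed by 0.69 (SE 0.07).

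Genes were ranked that had a symbol, lay outside chromosome Y, were called and averaged 50 or more normalised reads. The largest differences in the lower direction belonged to genes with few reads in UTX-control, so that their size is imprecise. GDAP1L1, a relative of a gene of peripheral nerve disease, had 0.502 and 0.524 CPM in TAL1-KD and 3.84 and 3.39 CPM in TAL1-control, and 0.482 and 0.671 CPM in UTX-KD and 0.0612 and 0.0342 CPM in UTX-control. The controls were far apart and the induced groups overlapped. Its difference was -6.29 (SE 0.42, edgeR adjusted p = 1.76e-05), with a 95% interval of -7.23 to -5.36. UCP1, the mitochondrial uncoupling protein, differed by -4.20 (SE 0.40), with 1.66 and 1.40 CPM in TAL1-KD and 1.57 and 1.33 CPM in TAL1-control, against 0.830 and 0.895 CPM in UTX-KD and 0.0367 and 0.0513 CPM in UTX-control. FUT1, a fucosyltransferase, differed by -4.06 (SE 0.22). The difference of SPNS3, a transporter family member with more reads, was -2.38 (SE 0.10), smaller in size than those of PRF1 and GLIPR1 below. SPNS3 had 95.2 and 99.7 CPM in TAL1-KD and 221 and 216 CPM in TAL1-control, and 67.0 and 63.7 CPM in UTX-KD and 26.5 and 30.0 CPM in UTX-control.

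PRF1, GLIPR1 and PLD6 moved in the TAL1-labelled arm with a UTX-labelled change under 0.2 on the log2 scale. PRF1, the pore protein perforin of killer cells, had 0.727 and 0.507 CPM in TAL1-KD and 4.62 and 4.01 CPM in TAL1-control, and 3.20 and 2.84 CPM in UTX-KD and 2.80 and 2.69 CPM in UTX-control. It differed by -2.94 (SE 0.23, edgeR adjusted p = 3.85e-05), and GLIPR1 by -2.90 (SE 0.20). PLD6, an enzyme of the mitochondrial surface, differed by 2.11 (SE 0.21), with 29.5 and 42.8 CPM in TAL1-KD above the other 6 libraries, which lay between 7.77 and 12 CPM. LUCAT1, a stress-induced long non-coding RNA, had the largest positive difference under the same read minimum and outside chromosome Y, at 3.66 (SE 0.63). LUCAT1 had 1.23 and 0.524 CPM in TAL1-KD and 0.0538 and 0.0442 CPM in TAL1-control, and 2.53 and 2.55 CPM in UTX-KD and 1.96 and 1.76 CPM in UTX-control. Its log2 fold change was 4.10 in the TAL1-labelled arm and 0.44 in the UTX-labelled arm, where it did not pass the test, and its TAL1-labelled libraries were all below the UTX-labelled ones.

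The called genes were not spread evenly over annotated gene types. Among 13172 protein-coding genes, 29.8% had a higher and 26.3% a lower difference. Of 1160 antisense genes, 6.12% had a higher and 27.0% a lower one, and of 926 lincRNAs, 6.80% and 27.3%. Processed pseudogenes went the other way, with 20.3% of 778 higher and 6.56% lower. In the TAL1-labelled arm 10.9% of antisense genes rose and 35.5% fell, against 5.43% and 5.52% in the UTX-labelled arm. Antisense counts depend on the strand setting of the counting, which is not given in the sources used here. Over 17037 genes with annotated length and GC content, the difference had a Spearman correlation of 0.15 with GC content and -0.116 with length. With both trends removed, 4892 genes were called higher and 4316 lower, and 90.6% of the 8825 genes were called again.

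**Figure D5:**
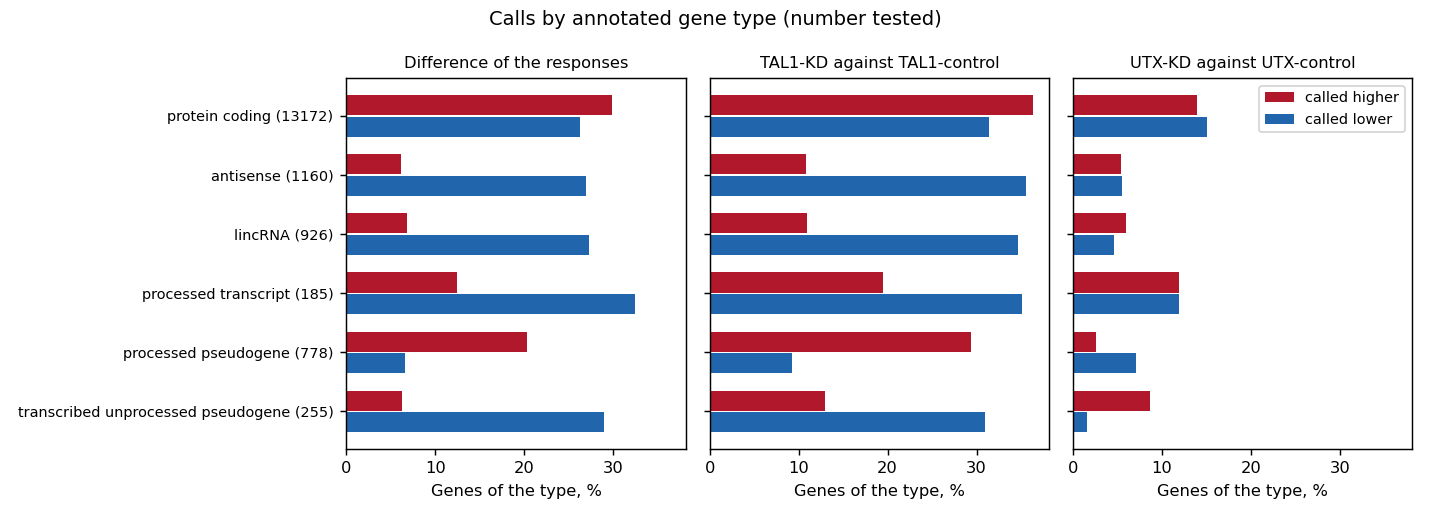
Share of genes called higher (red) and lower (blue) by annotated gene type, in percent of the genes of the type tested, for the difference of the responses, TAL1-KD against TAL1-control and UTX-KD against UTX-control. Antisense genes and lincRNAs have more lower than higher calls in the first 2 panels, processed pseudogenes more higher than lower ones, and protein-coding genes similar shares of both.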

How the data were processed

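RNA was measured in 8 Jurkat libraries, 2 per group. The deposited values are raw read counts per gene that the authors made with TopHat2 2.0.12 and HTSeq 0.6.1p1 on hg19, per the submitters' processing notes, which also name DESeq2. The annotation and the strand setting are not given in the sources used here. Tables were joined by identifier (27070 genes in both, 31885 in either). Symbols came from a separate list of gene names, and from GENCODE 29 where that list had none. Lengths and GC content came from GENCODE 29, and synonyms and promoters from RefSeq GRCh38.p14.

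Counts were scaled by TMM and filtered with filterByExpr, leaving 17611 genes, and tested with edgeR 4.0.16 quasi-likelihood tests in R 4.3.3 on 4 group means, with Benjamini-Hochberg adjustment over all genes and a threshold of 0.05. The procedure was also run on simulated data with the same spread for all genes and libraries of an arm. The real spread was unequal between groups, and the outcome of that run is not reported here. DESeq2 1.42.0 and limma 3.58.1 served as alternatives, with other scalings, filters, thresholds, left-out libraries and replicate blocks. The deviations of same-numbered replicates correlated between -0.0779 and 0.0502. No pairing by number was seen and none was used in the main fit, though so few libraries per group cannot exclude it.

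Named genes were both targets and KDM6B, the 8 largest called differences per direction, the 8 per direction with opposite calls, the 6 per direction near 0 in 1 response, the 6 per direction shared, all with a mean normalised count of at least 50, and up to 4 members per list with the smallest adjusted p. Genes on chromosome Y were left out of these rankings, except for the members per list. Printed promoters were not taken from chromosomes 8 or Y. Other genes named were chosen after their values were seen. The members and lists were chosen with earlier results of these data known. The drug treatment libraries were not used here, and some genes that the rule names are not reported here.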

Additional observations from a re-analysis of the deposited data

Results flagged for a closer look

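The response to doxycycline differed between the TAL1-labelled and UTX-labelled lines by a test of the difference itself at 8825 genes, 4405 of them higher and 4420 lower in the TAL1-labelled response (edgeR quasi-likelihood test, adjusted p under 0.05). Both responses were called in opposite directions at 589 genes that were higher in TAL1-KD and lower in UTX-KD, and at 392 genes that were lower in TAL1-KD and higher in UTX-KD. No reason for these counts was tested, and shRNA, line and culture cannot be told apart between the arms.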

How the results depend on the processing

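Across the other scalings, filters, models, blocks and left-out libraries at the same threshold, no gene called in both fits changed sign, and between 73.1% and 100% of the 8825 genes were called again. At an adjusted p under 0.01 the difference was called at 5828 genes (2786 lower), the UTX-labelled response at 2136 and opposite calls at 220 (TAL1-KD higher) and 147 (TAL1-KD lower). With an absolute log2 value of at least 1 the difference had 2483 calls (712 higher, 1771 lower), the TAL1-labelled response 2615, the UTX-labelled response 397, TAL1-KD against UTX-KD 3738, TAL1-control against UTX-control 2823, and opposite calls 2 and 33. Library totals gave 2281 higher and 6714 lower genes and opposite calls at 238 and 757, and upper quartile scaling gave opposite calls at 386 and 602. With limma voom and group weights the TAL1-labelled response was called at 8378 genes and the UTX-labelled response at 8542, and opposite calls were 1112 and 668. The Pearson correlation of the responses was 0.0517 with the DESeq2 Wald test, 0.213 with a mean CPM of at least 1 and 0.0414 with no filter on low counts.

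Leaving out 1 library at a time left its group with a lone sample, assumed to vary like the other groups. The difference was then called at 6505 to 11321 genes (3256 to 5554 higher, 3249 to 5767 lower), the TAL1-labelled response at 8825 to 12383, the UTX-labelled response at 1375 to 8083, TAL1-KD against UTX-KD at 9962 to 13074 and TAL1-control against UTX-control at 8275 to 12651. Opposite calls ranged from 148 to 1463 with TAL1-KD higher and from 121 to 1124 with TAL1-KD lower, and the Pearson correlation from 0.106 to 0.154. The libraries behind the changes in the UTX-labelled count and the opposite calls are named beside them in the report, and the cause was not tested.

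No pairing of samples by replicate number was seen, though so few libraries per group cannot exclude it. A replicate block across both arms gave 8619 called differences (4298 higher, 4321 lower), and a replicate block within each arm gave 8631 (4279 higher, 4352 lower).

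Differences near 0 changed sign. With 1 library left out, BTG2 lay between -0.0859 and 0.0405, above 0 without TAL1-KD replicate 1, UTX-KD replicate 2 or UTX-control replicate 1. PLK1 lay between -0.128 and 0.0550, above 0 without TAL1-KD replicate 1 or UTX-KD replicate 1. CCNB1 was at 0.0157 with the trends of GC content and length removed. TAL1 was at -0.188 with library totals and -0.0702 with upper quartile scaling, and its 0.15 without TAL1-KD replicate 1 passed the test. Depth limits genes with few reads in a control, whose large differences are imprecise.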

Other observations

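Interferon-stimulated genes had a higher difference at 12 of 29 tested and a lower one at 6, against 25.0% and 25.1% of all genes. Their median was 0.24 against -0.03 for all genes. Library totals gave 6 higher and 8 lower, and upper quartile scaling 8 and 7. IFIT3, an antiviral protein, had 16.8 and 15.3 CPM in TAL1-KD and 3.13 and 3.49 CPM in TAL1-control, and 10.9 and 11.5 CPM in UTX-KD and 6.87 and 6.41 CPM in UTX-control. It rose in both arms, and the difference was 1.53 (SE 0.13, edgeR adjusted p = 5.44e-05). XAF1, a pro-apoptotic gene of the same list, went the other way, at -0.62 in the TAL1-labelled arm and 0.67 in the UTX-labelled one.

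Of 22 BCL2 family and death receptor genes, 9 had a higher and 5 a lower difference (median 0.16), and library totals gave 5 and 8. Of all genes, 25.0% had a higher and 25.1% a lower difference, the shares to set beside each TMM count in this paragraph. BCL2, which blocks cell death, fell by 0.67 in the TAL1-labelled arm and was at 0.00 in the UTX-labelled arm. MCL1, another survival factor, rose by 0.54 and was at -0.10. Of 11 MYC network genes, 5 had a higher and 2 a lower difference. MYC had 127 and 134 CPM in TAL1-KD and 108 and 101 CPM in TAL1-control, and 257 and 255 CPM in UTX-KD and 297 and 297 CPM in UTX-control, a difference of 0.54 (SE 0.08). MYCN differed by -0.70 (SE 0.11). Among 20 cytosolic aminoacyl-tRNA synthetases, 6 had a higher and 7 a lower difference, 21 p53 targets had 7 and 4, 13 NOTCH genes 2 and 1, and 14 HOX genes 2 and 5. With library totals these were 4 and 10, 3 and 7, 1 and 5, and 1 and 7.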
